A study of Mus musculus with 9 samples.

Results

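The desmosome genes of stratified epithelium were examined in RNA from mouse mandible. The genes were chosen by symbol, and all 10 of them, *Dsg1a*, *Dsg1b*, *Dsg2*, *Dsg3*, *Dsc1*, *Dsc2*, *Dsc3*, *Pkp1*, *Jup* and *Perp*, were found among the 27179 genes of the count table and among the 16329 genes with enough counts to be tested. Poly(A) RNA came from whole mandibles with their teeth, taken from 6-month-old males on the C57BL/6 background. There were 5 WT mice and 4 mice labelled *FcγRIIB*-/-, the genotype without the inhibitory Fc receptor for IgG that is used as a model of lupus. The deletion is carried by the whole animal, and the labels give no treatment. Library totals ran from 24158960 to 26787359 counts in WT and from 21453880 to 28991631 in the group labelled *FcγRIIB*-/-, so that even the scarcest member, *Dsg1b*, had at least 64 counts in every mouse.

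Before the desmosome genes, the targeted gene and the tissue were checked against the labels. *Fcgr2b* had 24.0 ± 8.28 CPM (CPM, the count scaled by the normalized library size, SD, n = 5) in WT. The group labelled *FcγRIIB*-/- had 27.8 ± 2.90 CPM (SD, n = 4), and with a log2 fold change of 0.21 (edgeR adjusted p = 0.442) the knockout label could not be seen in its count. Directions are therefore given between libraries by their labels. Without WT replicate 2, which stood above the other WT mice for *Fcgr2b*, that gene was higher in the group labelled *FcγRIIB*-/- (log2 fold change 0.46, edgeR adjusted p = 0.0131). Bone and tooth were both present, with *Col1a1*, the main collagen of bone matrix, at a mean of 31250 CPM in WT and 32590 CPM in the libraries labelled *FcγRIIB*-/-, and *Amelx*, the enamel matrix gene of ameloblasts, at 7275 and 18470 CPM. *Krt13*, a keratin of the oral lining, had a mean of 3604 CPM in WT and 90.1 CPM in the libraries labelled *FcγRIIB*-/-. WT replicate 5 stood apart. It led the 9 mice in 9 of the 10 desmosome genes and was the lowest mouse in the remaining 1, *Dsg2*. The calls it decides and several of the values it moves are given with and without it.

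Desmosomes are the spot junctions that tie the keratin filaments of neighbouring epithelial cells together. Desmogleins (Dsg) and desmocollins (Dsc) are the cadherins that bridge the gap between cells, plakoglobin (*Jup*) and the plakophilins (*Pkp*) bind their tails, and desmoplakin (*Dsp*) connects the plaque to keratin. In skin the cadherins change with height in the epithelium. *Dsg3* and *Dsc3* are strongest in the basal and lower layers, and *Dsg1* and *Dsc1* in the upper, differentiating layers. *Dsg2* and *Dsc2* are also used by simple epithelia. The upper and lower layers named below are those of skin, and the layers of the oral mucosa were not examined. The desmogleins of the mucosa are known as the targets of the autoantibodies of pemphigus.

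The cadherins of the upper layers were lower in the libraries labelled *FcγRIIB*-/-, and the rest of the members did not pass the test. *Dsc1*, *Dsg1a* and *Dsg1b* fell by 3.78, 1.95 and 2.32 on the log2 scale, and for each of them the WT mice lay wholly above the mice labelled *FcγRIIB*-/-. Thus 3 of 10 members passed as lower and 0 as higher at an adjusted p of 0.05, where 19.3% of all tested genes passed as lower and 14.0% as higher. DESeq2 called 5 members lower, *Dsg3* (adjusted p = 0.0232) and *Pkp1* (adjusted p = 0.0260) beside these 3, and 0 higher, and the 1 member with a positive value, *Dsg2*, had an edgeR adjusted p of 0.703. The same 3 of 10 had groups that did not overlap, against 17.5% of all tested genes with every WT mouse above and 12.1% with every WT mouse below. The median log2 fold change of the 10 members was -0.54, and that of all tested genes was 0.0055. Without WT replicate 5, the members still held 3 lower and 0 higher genes, with a median of -0.30. In RNA from a whole jaw, fewer cells of a type and less RNA per cell cannot be told apart.

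*Dsc1* (desmocollin 1, gene identifier 13505), the desmocollin of differentiated keratinocytes, changed the most. It had 40.4, 19.6, 41.1, 25.9 and 193 CPM in WT replicates 1 to 5, and 3.61, 4.99, 4.62 and 5.52 CPM in replicates 1 to 4 labelled *FcγRIIB*-/-. WT replicate 5 was far above the other WT mice, and the lowest WT mouse was still above the highest mouse labelled *FcγRIIB*-/-. The groups had 64.1 ± 72.9 CPM (SD, n = 5) and 4.69 ± 0.808 CPM (SD, n = 4), a fitted level 13.7-fold higher in WT (log2 fold change -3.78, SE 0.71, edgeR adjusted p = 0.00322). *Dsc1* had a log2 fold change of -2.75 when WT replicate 5 was left out, and it passed in each of its 17 alternatives.

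*Dsg1a* (desmoglein 1 alpha, gene identifier 13510) had 121, 68.0, 109.5, 98.2 and 290.5 CPM in WT replicates 1 to 5, and 42.4, 38.9, 25.7 and 35.1 CPM in replicates 1 to 4 labelled *FcγRIIB*-/-. WT replicate 5 was again the highest, and the mice labelled *FcγRIIB*-/- lay close together below all WT mice. The mean was 137.5 ± 87.8 CPM (SD, n = 5) in WT and 35.5 ± 7.18 CPM (SD, n = 4) in the others (log2 fold change -1.95, SE 0.38, edgeR adjusted p = 0.00383). *Dsg1b* (desmoglein 1 beta, gene identifier 225256), its close copy, had 20.9, 11.6, 21.1, 15.1 and 55.6 CPM in WT and 5.15, 6.15, 5.34 and 3.24 CPM in the libraries labelled *FcγRIIB*-/-. WT replicate 5 was the highest WT mouse and WT replicate 2 the lowest for both copies, while the mice labelled *FcγRIIB*-/- were not in the same order. The groups of *Dsg1b* did not overlap, with a log2 fold change of -2.32 (SE 0.44, edgeR adjusted p = 0.00351). Without WT replicate 5 the log2 fold changes were -1.46 for *Dsg1a* and -1.76 for *Dsg1b*, and both passed in all 18 alternatives.

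The split of reads between *Dsg1a* and *Dsg1b* is uncertain. Of the 75-base windows of the *Dsg1a* transcripts, 29.2% also occur in another gene, nearly all of them in *Dsg1b*, and of the *Dsg1b* windows 39.7% are shared in the same way. How reads with several matches were counted is not given in the sources used here. *Dsg1a* took between 82.8% and 91.5% of the counts of the pair in the 9 mice. Summed into 1 gene together with *Dsg1c*, the copies gave a log2 fold change of -2.0 (edgeR adjusted p = 0.00353), so the direction does not rest on the split. *Dsg2* shares 4.53% of its windows with the antisense gene *Gm16090*, and the other 7 members share 0.

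The 7 cadherins lie side by side in 1 cluster on chromosome 18 of GRCm38 (mm10), between the start of *Dsc3* at 19960930 and the end of *Dsg2* at 20604526. The desmocollins are read from the minus strand in the order *Dsc3*, *Dsc2*, *Dsc1*, followed on the plus strand by *Dsg1c*, *Dsg1a*, *Dsg1b*, *Dsg4*, *Dsg3* and *Dsg2*. *Dsc1* (20083471 to 20114773), *Dsg1a* (20310873 to 20343353) and *Dsg1b* (20376729 to 20412183) hold the middle of the cluster. The outer genes *Dsc3*, *Dsc2*, *Dsg3* and *Dsg2* did not pass. *Dsg1c* and *Dsg4*, which also lie in the middle, had too few counts to be tested.

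**Figure D1:**
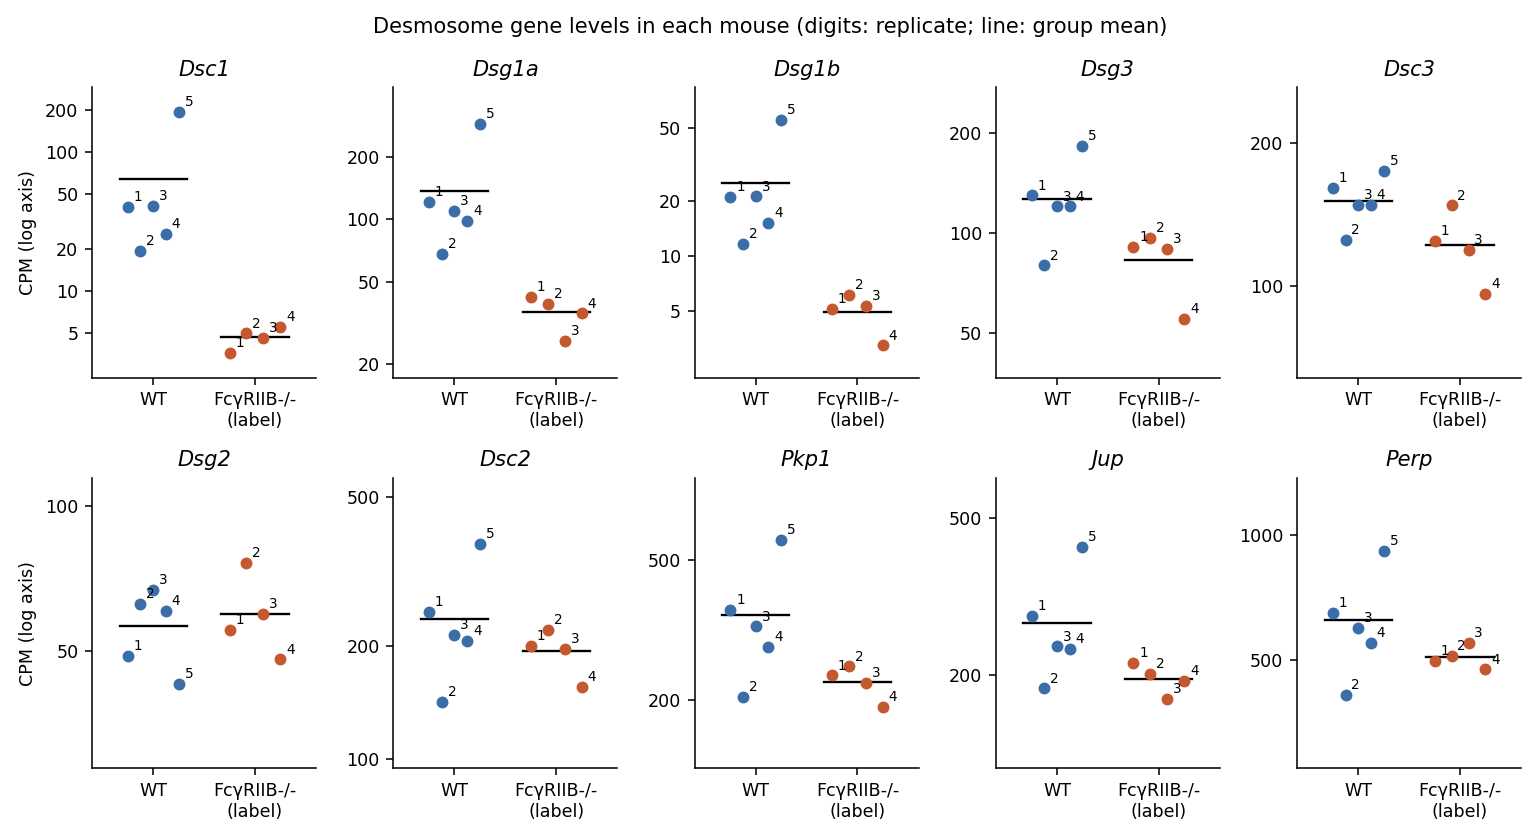
Level of each desmosome gene in CPM on log axes, 1 point per mouse with its replicate number, for 5 WT mice (blue) and 4 mice labelled FcγRIIB-/- (orange), with the group mean as a line. The groups are apart in *Dsc1*, *Dsg1a* and *Dsg1b* and overlap in the other 7 genes, and WT replicate 5 is the highest point in every panel but that of *Dsg2*.

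The cadherins of the lower layers and the broadly used pair had smaller differences, none past the threshold over all 9 mice with edgeR and TMM. *Dsg3*, the desmoglein of the lower layers of skin, had 130, 79.8, 120.1, 120.2 and 183 CPM in WT. In the libraries labelled *FcγRIIB*-/- it had 90.7, 96.4, 89.2 and 54.9 CPM. Only WT replicate 2 lay among the mice labelled *FcγRIIB*-/-, and the log2 fold change was -0.61 (SE 0.22, edgeR adjusted p = 0.0557). *Dsg3* passed as lower in 3 of 17 alternatives, with DESeq2, with library totals alone and without WT replicate 2. *Dsc3*, its partner in the lower layers, had between 125 and 175 CPM in WT and between 96.4 and 148 CPM in the libraries labelled *FcγRIIB*-/- (log2 fold change -0.31, edgeR adjusted p = 0.0793), and passed with library totals alone and without replicate 2 labelled *FcγRIIB*-/-. *Dsc2* ranged from 142 to 374 CPM in WT and from 156 to 221.5 CPM in the libraries labelled *FcγRIIB*-/- (log2 fold change -0.29, adjusted p = 0.353). Most of this difference rested on WT replicate 5, since *Dsc2* stood at -0.04 once that mouse was left out (edgeR adjusted p = 0.876). *Dsg2* was the 1 member with a positive value, with 56.3 ± 10.2 CPM (SD, n = 5) against 59.8 ± 12.0 CPM (SD, n = 4), a log2 fold change of 0.08 (edgeR adjusted p = 0.703). Its sign turned to -0.053 without replicate 2 labelled *FcγRIIB*-/-.

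The make-up of the cadherins differed with these changes. Per kilobase of exon, *Dsg1a* and *Dsg1b* together made up 51.8 ± 9.29% (SD, n = 5) of the desmoglein level in WT and 28.5 ± 4.84% (SD, n = 4) of it in the group labelled *FcγRIIB*-/-. The share was between 43.9% and 67.5% in WT and between 22.7% and 33.8% in the libraries labelled *FcγRIIB*-/-, with no overlap. *Dsg3* took 33.9% and 44.3% on average, and *Dsg2* took 14.3% and 27.2%. Among the desmocollins, the *Dsc1* share was 12.3 ± 8.39% in WT, with 27.1% in WT replicate 5 and from 7.17% to 10.7% elsewhere, and 1.59 ± 0.473% in the libraries labelled *FcγRIIB*-/-. *Dsc2* held 52.6% and 61.0%, and *Dsc3* held 35.1% and 37.4%. The size of the desmoglein shares depends on how reads common to *Dsg1a* and *Dsg1b* were counted. All shares depend on the exon length, here the union of all exons of a gene. For *Dsg2* that was 8.268 kb, whereas its longest coding transcript has 5766 bases.

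**Figure D2:**
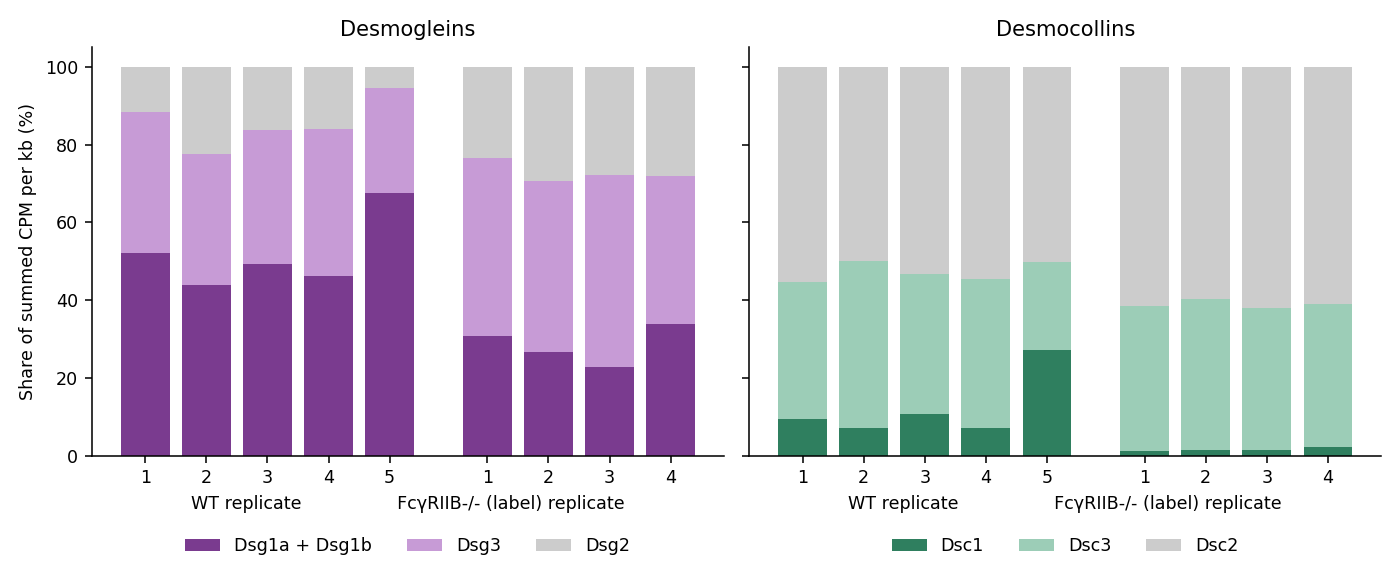
Share of each desmoglein (left) and desmocollin (right) in the summed CPM per kilobase of exon, in percent, with 1 stacked bar per mouse. The *Dsg1a* and *Dsg1b* share is at least 43.9% in each WT mouse and at most 33.8% in each mouse labelled FcγRIIB-/-, and the *Dsc1* share is at most 2.26% in the latter.

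Ratios between 2 genes of the same library do not move with the scaling of libraries, and 8 were tested. The log2 ratio of *Dsc1* to *Dsc3* was lower by 2.92 (SE 0.55) in the libraries labelled *FcγRIIB*-/-, with WT mice between -2.68 and 0.15 and the others between -5.10 and -4.12. The ratio of *Dsg1a* plus *Dsg1b* to *Dsg3* was -0.08 to 0.92 in WT and -1.52 to -0.52 in the libraries labelled *FcγRIIB*-/-, a difference of -1.24 (SE 0.27). In both, the cadherin of the upper layers of skin was lower relative to that of the lower layers. No mouse labelled *FcγRIIB*-/- reached the WT range. The two-sided exact permutation test gave p = 0.00794 for both, the smallest that 5 against 4 mice allow, and 0.0106 after adjustment over the 8 ratios. The ratio of *Dsg3* to *Dsg2* differed by -0.68 (SE 0.32) with overlapping groups (exact permutation p = 0.0714, adjusted 0.0816). That of *Dsc3* to *Dsc2* differed by -0.09 (SE 0.15, exact permutation p = 0.595), within the spread between mice.

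The plaque and membrane partners *Pkp1*, *Jup* and *Perp* were below WT on average without passing. *Pkp1* (plakophilin 1, chromosome 1, 135871394 to 135919207), which clusters desmosomal proteins in suprabasal keratinocytes, had 361.5, 203.5, 324, 283 and 573 CPM in WT and 235, 249, 224 and 191 CPM in the libraries labelled *FcγRIIB*-/-. WT replicate 2 lay among the mice labelled *FcγRIIB*-/-, and the log2 fold change was -0.64 (SE 0.24, edgeR adjusted p = 0.0669). *Pkp1* passed in the same 3 of 17 alternatives as *Dsg3*, and had -0.36 without WT replicate 5 (edgeR adjusted p = 0.120). *Perp* (chromosome 10, 18845071 to 18857073), a tetraspan membrane protein that desmosomes of stratified epithelia need, ranged from 413 to 917 CPM in WT and from 476 to 550.5 CPM in the libraries labelled *FcγRIIB*-/- (log2 fold change -0.30, edgeR adjusted p = 0.242). *Perp* stood at -0.097 once WT replicate 5 was left out (edgeR adjusted p = 0.612). The *Pkp1* gene overlaps the predicted gene *Gm36938* on the same strand in GENCODE.

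*Jup* (plakoglobin, chromosome 11, 100368856 to 100397839), which binds the tails of all desmosomal cadherins and is also found in adherens junctions, had 282, 184.5, 236, 232 and 421 CPM in WT. It had 214, 200.9, 174 and 193 CPM in the libraries labelled *FcγRIIB*-/-, with a log2 fold change of -0.47 (SE 0.20, edgeR adjusted p = 0.0947). *Jup* passed in 1 of 17 alternatives, without WT replicate 2, and had -0.24 without WT replicate 5 (edgeR adjusted p = 0.177). WT replicate 2 was within the range of the mice labelled *FcγRIIB*-/- and the other WT mice were above it. *Jup* was the 1 member with an entry in the RefSeq promoter table for GRCm38. Its window is shown with those of the plaque partner *Dsp* and of *Krt5*, the basal keratin used for comparison, because *Dsp* fell and *Krt5* rose while *Jup* did not pass. Each runs from 250 to 50 bases before the start listed in the RefSeq promoter table. For *Jup*, that start lies inside the gene interval given above. The windows are written 5′ to 3′ on the strand of the gene, with matches to the searched motifs in capitals.

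*Jup*, chr11:100397840-100398040, minus strand: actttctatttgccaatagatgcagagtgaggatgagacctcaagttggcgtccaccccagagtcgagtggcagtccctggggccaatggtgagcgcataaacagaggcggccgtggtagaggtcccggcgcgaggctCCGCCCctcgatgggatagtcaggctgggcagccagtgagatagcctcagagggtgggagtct

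*Dsp*, chr13:38151044-38151244, plus strand: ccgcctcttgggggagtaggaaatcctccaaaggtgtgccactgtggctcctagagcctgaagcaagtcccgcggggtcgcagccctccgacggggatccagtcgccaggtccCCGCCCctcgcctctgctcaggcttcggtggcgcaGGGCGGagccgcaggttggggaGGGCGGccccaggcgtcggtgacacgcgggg

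*Krt5*, chr15:101712955-101713155, minus strand: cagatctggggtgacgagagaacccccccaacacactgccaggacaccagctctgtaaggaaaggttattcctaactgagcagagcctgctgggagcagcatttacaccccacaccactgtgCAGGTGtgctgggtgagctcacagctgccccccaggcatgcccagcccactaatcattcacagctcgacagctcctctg

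The GC content of the windows was 60.2% for *Jup*, 71.1% for *Dsp* and 58.2% for *Krt5*, and the median of all 32851 windows of the table was 51.7%. On both strands, GGGCGG, the GC box, occurred 1 time in *Jup* and 3 times in *Dsp*, and 24.8% of all windows hold it. CAGGTG, an E-box, occurred 1 time in *Krt5*, and 14.5% of all windows hold it. The letters AACCGGTT of Grainyhead factors, TGANTCA of AP-1 and GGGTGTGG of Klf factors occurred 0 times in the 3 windows, and are held by 0.0944%, 5.59% and 2.47% of all windows. No searched motif overlapped another here. Letters that match are a description and not a binding site.

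Per kilobase of exon, the order of the members' levels in WT ran from *Perp* at 321 CPM per kb through *Pkp1* at 69.5, *Dsc2* at 44.8, *Jup* at 42.1, *Dsc3* at 28.0, *Dsg1a* at 24.2, *Dsg3* at 18.1 and *Dsc1* at 12.7 to *Dsg2* at 6.82 and *Dsg1b* at 6.28. The neighbours *Dsc2* and *Jup*, *Dsc3* and *Dsg1a*, *Dsg3* and *Dsc1*, *Dsc1* and *Dsg2*, and *Dsg2* and *Dsg1b* changed places in at least 1 WT mouse. In the libraries labelled *FcγRIIB*-/- the first 5 places were the same, with *Perp* at 261 CPM per kb and *Dsc3* at 22.6. Below them the order became *Dsg3* at 11.9, *Dsg2* at 7.23, *Dsg1a* at 6.25, *Dsg1b* at 1.25 and *Dsc1* at 0.929. There, *Dsc2* and *Jup*, *Dsg2* and *Dsg1a*, and *Dsg1b* and *Dsc1* changed places in at least 1 mouse. Without WT replicate 5, *Dsc1* had 6.29 CPM per kb in WT and stood below *Dsg2* at 7.23. The other places in WT were the same, with *Dsg1a* at 17.5 and *Dsg3* at 16.1. All these places depend on the length used, here the union of all exons of a gene. For *Jup* that was 6.436 kb, whereas its longest coding transcript has 3205 bases. The order by transcript length was not computed.

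The wider desmosome was read from a list of 9 further genes, of which 7 had enough counts to be tested. Of these, 3 were lower (*Dsp*, *Ppl* and *Cdsn*) and 1 was higher (*Pkp4*), beside the 19.3% and 14.0% of all tested genes. The median log2 fold change of the 7 was -0.43, or -0.19 without WT replicate 5. *Dsp*, desmoplakin, had 688, 446, 669, 554 and 1309 CPM in WT and 428, 418, 343 and 274 CPM in the libraries labelled *FcγRIIB*-/-. All WT mice were above all mice labelled *FcγRIIB*-/-, with a log2 fold change of -1.0 (SE 0.28, edgeR adjusted p = 0.0209), or -0.66 without WT replicate 5. The call was lost without replicate 3 or replicate 4 labelled *FcγRIIB*-/- (edgeR adjusted p = 0.0557 and 0.0606).

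*Cdsn*, corneodesmosin, the outer glycoprotein of desmosomes in cornified layers, had 38.9, 19.9, 38.1, 30.8 and 200.3 CPM in WT and 3.40, 4.21, 2.03 and 6.03 CPM in the libraries labelled *FcγRIIB*-/-. Its log2 fold change of -4.08 (SE 0.75, edgeR adjusted p = 0.00304) was next to that of *Dsc1*, and was -3.02 without WT replicate 5. *Ppl*, periplakin, a plakin of the upper layers, had 162 ± 95.2 CPM (SD, n = 5) and 55.1 ± 5.34 CPM (SD, n = 4), a log2 fold change of -1.56 (SE 0.35, edgeR adjusted p = 0.00732). Its relative envoplakin (*Evpl*) had -0.43 and did not pass (adjusted p = 0.183). *Evpl* passed as lower in 1 of its 15 alternatives, without WT replicate 2 (-0.57, edgeR adjusted p = 0.0360). Without WT replicate 5 it had -0.19 (edgeR adjusted p = 0.4495). Among the plakophilins, *Pkp4*, which is also found at adherens junctions, rose by 0.34 (adjusted p = 0.0366) from 103 ± 16.3 to 130 ± 6.19 CPM, and the call was lost in 6 of its 15 alternatives, with library totals alone and without WT replicate 1 or any 1 of the mice labelled *FcγRIIB*-/- (0.26 to 0.36). *Pkp3* (-0.34, adjusted p = 0.232) and *Pkp2* (0.07, adjusted p = 0.754) did not pass. Without WT replicate 5, *Pkp3* had -0.10 (edgeR adjusted p = 0.604).

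The lists of other junctions are read beside the same 19.3% lower and 14.0% higher of all tested genes. In the list of hemidesmosome and basement membrane anchor genes, which fix basal cells to the matrix, 0 of 9 genes were lower and 6 were higher. Among them, *Lamb3* rose by 0.71 (adjusted p = 0.00477) and *Lama3* by 0.42 (adjusted p = 0.0236), both of which encode laminin chains of the basement membrane, and *Col17a1*, *Itgb4* and *Cd151* also passed. Of 8 adherens junction genes, 1 was lower (*Ctnnd1*, p120-catenin, -0.42) and 2 were higher (*Cdh3*, P-cadherin, 0.36, and *Afdn*, afadin, 0.22). Of 11 tight junction genes tested, 3 were lower (*Cgn* -1.42, *Tjp3* -1.03 and *Cldn4* -0.94) and 1 was higher (*F11r* 0.34). Of 6 gap junction genes, 4 were lower, among them the connexins *Gjb2* (-1.81) and *Gjb6* (-1.71), and 0 were higher. The counts of these 4 lists were the same without WT replicate 5. No test compared the lists with each other.

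Regulators of desmosomes and of keratinocyte differentiation included 6 lower and 0 higher genes of 11, with a median of -1.11, where 19.3% and 14.0% of all tested genes passed as lower and higher. The kallikrein proteases that cut desmosomes at the skin surface were among them. *Klk7* had 14.5 ± 8.04 CPM (SD, n = 5) in WT and 1.04 ± 0.273 CPM (SD, n = 4) in the others (log2 fold change -3.81, SE 0.41, edgeR adjusted p = 0.000266). *Klk5* had 1.82 and 0.0710 CPM on average (edgeR adjusted p = 0.00186) and rests on few reads. *Spink5*, which encodes their inhibitor, was also lower (-1.31, adjusted p = 0.0293), though not without WT replicate 5 (-0.90, adjusted p = 0.0510).

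The other regulators that fell were transcription factors. *Grhl3* had 16.9 ± 9.33 and 3.92 ± 0.551 CPM (log2 fold change -2.10, edgeR adjusted p = 0.00194), *Ovol1* had -1.72 (adjusted p = 0.00535) and *Grhl1* had -1.11 (adjusted p = 0.0174). *Klf4* (-0.43, adjusted p = 0.108) and *Trp63* (0.31, adjusted p = 0.0599), the master factor of stratified epithelium, did not pass. Without WT replicate 5, *Klf4* had -0.18 (edgeR adjusted p = 0.1585). *Trp63* passed as higher in 3 of its 15 alternatives, with RLE size factors (adjusted p = 0.0487), with DESeq2 (adjusted p = 0.0271) and without replicate 4 labelled *FcγRIIB*-/- (adjusted p = 0.0192). The calcium pump genes *Atp2a2* (-0.03) and *Atp2c1* (-0.04), whose human counterparts are mutated in skin diseases with loss of cell adhesion, did not pass.

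The members were also set against the basal layer. *Krt5*, the keratin of basal cells to which desmosomes attach, had 1855, 1299, 1784, 1390 and 1763 CPM in WT and 2199, 2243, 2059 and 1988 CPM in the libraries labelled *FcγRIIB*-/-, all above WT (log2 fold change 0.39, SE 0.13, edgeR adjusted p = 0.0356). The call was lost in 6 of its 15 alternatives, with library totals alone and without WT replicate 2 or 4 or replicate 1, 2 or 3 labelled *FcγRIIB*-/-, where the log2 fold change was between 0.32 and 0.41. Of the 4 basal keratinocyte markers *Krt5* was the 1 that passed, and *Krt14* (0.24, adjusted p = 0.320) and *Krt15* (-0.25, adjusted p = 0.552) did not. Relative to *Krt5* of the same library, *Dsg3* was lower by 1.0 (SE 0.21) on the log2 scale, *Pkp1* by 0.96 (SE 0.18), *Jup* by 0.82 (SE 0.16) and *Perp* by 0.66 (SE 0.14). Each of these 4 ratios separated the groups without overlap (exact permutation p = 0.00794, adjusted 0.0106 over the 8 ratios). They held without WT replicate 5, with differences of -0.80 for *Pkp1*, -0.69 for *Jup* and -0.54 for *Perp*.

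**Figure D3:**
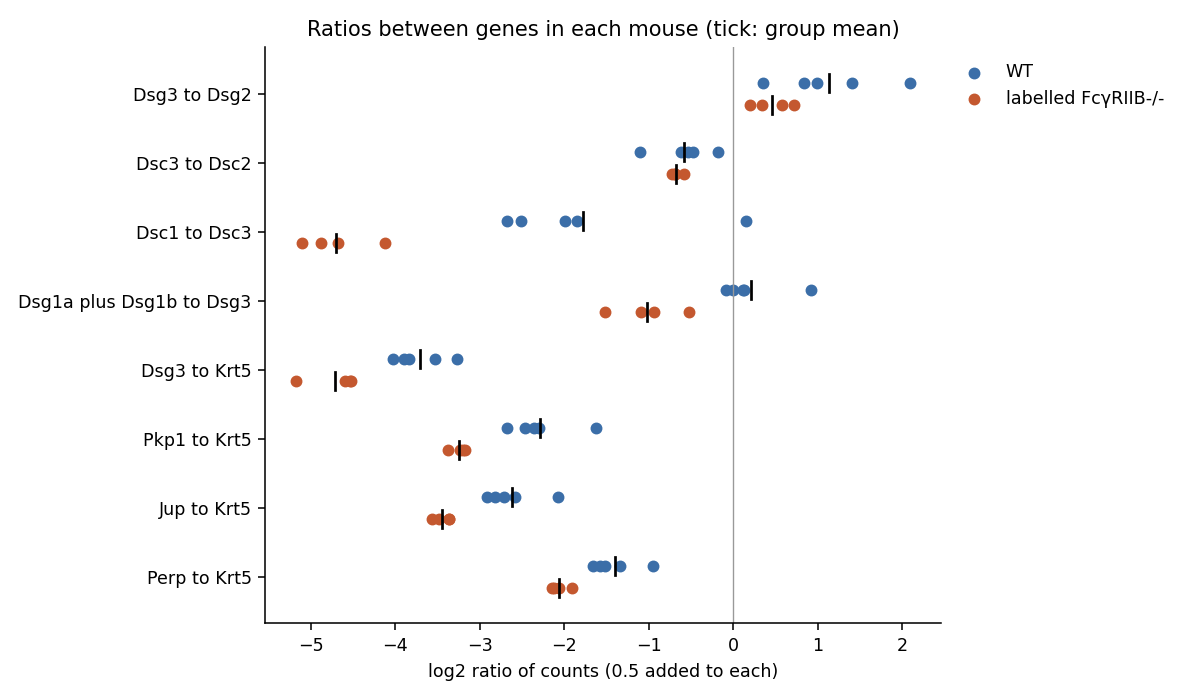
The 8 tested log2 ratios between the counts of 2 genes, 1 point per mouse, for WT (blue) and mice labelled FcγRIIB-/- (orange), with group means as ticks. The groups overlap for *Dsg3* to *Dsg2* and *Dsc3* to *Dsc2* and are apart for the other 6 ratios.

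*Krt5* has more than 1 source in a jaw with teeth, since the epithelium of the enamel organ also makes it. Markers of the epithelia differed in direction, and their counts are read beside the 19.3% of all tested genes that were lower and the 14.0% that were higher. All 5 oral mucosa markers were lower (*Krt4* by 5.67, *Krt13* by 5.32 and *Krt76* by 4.18 on the log2 scale), and their summed level, in which *Krt13* was the most abundant gene, was 10.8-fold higher in WT (8172 ± 5268 against 759 ± 158 CPM). WT replicate 5 had a sum of 16840 CPM and the other WT mice had 3246 to 8187, and without that mouse *Krt76* fell by 3.28. Of the skin keratinocyte markers that cornify, 4 of the 4 tested were lower, with summed levels of 828 ± 793 CPM in WT and 17.2 ± 1.45 CPM in the libraries labelled *FcγRIIB*-/-, in which *Lor* was the most abundant gene. *Lor* and *Krt1* fell by 6.75 and 6.44 on the log2 scale, and *Flg* had 18.9 CPM in WT replicate 5, 1.12 to 12.0 CPM in the other WT mice and at most 0.14 CPM in the mice labelled *FcγRIIB*-/-. The skin sum was 2196 CPM in WT replicate 5 and 219 to 811 in the other WT mice, and without that mouse *Lor* fell by 6.24 and *Krt1* by 5.54, each still past the threshold. The lowest WT sums, 3246 and 219 CPM in WT replicate 2, were above the highest sums of 898 and 18.8 CPM in the libraries labelled *FcγRIIB*-/-. Dental epithelium had 4 higher genes of 6 (*Amelx* 1.34, *Ambn* 1.13 and *Enam* 0.99), and its summed level, with *Amelx* the most abundant gene, was 9412 to 25560 CPM in WT and 28890 to 50040 CPM in the libraries labelled *FcγRIIB*-/-. The part of these epithelia in the changes of *Dsc1*, *Dsg1a* and *Dsg1b* and in the ratios to *Krt5* was not tested.

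Lists for other tissues of the jaw are read beside the same 19.3% lower and 14.0% higher of all tested genes. Marrow myeloid genes were lower in 5 of 5 (*Elane* -3.62, *Mpo* -3.56 and *Ctsg* -3.12), with summed levels of 188 ± 83.0 and 17.1 ± 18.5 CPM, and erythroid genes in 3 of 3 (among them *Alas2* -3.65 and *Hba-a1* -2.77). Skeletal muscle had 3 higher genes of 5 (*Tnnt3* 1.15, *Ckm* 0.98 and *Actn3* 0.88), or 2 without WT replicate 5, where *Actn3* did not pass (edgeR adjusted p = 0.0533), and simple and glandular epithelium 3 of 7 (*Krt8* 1.26, *Krt18* 1.14 and *Epcam* 0.57). In the hair follicle list, *Krt27* was the 1 higher gene of 3 tested (1.04, adjusted p = 0.0385). Without WT replicate 5, *Krt27* did not pass (adjusted p = 0.0609) and *Msx2* did (0.35, adjusted p = 0.0129). Bone cell markers had 2 lower genes of 5 (*Sost* -3.56 and *Ibsp* -0.64). *Sost* had 351.5 CPM in WT replicate 5 and 10.4 to 22.7 CPM in the other WT mice. Without that mouse its log2 fold change was -1.06 (edgeR adjusted p = 0.0233) and *Ibsp* did not pass (-0.42, adjusted p = 0.0793). Of the remaining lists, 0 of 3 endothelial and 0 of 3 T cell markers passed (endothelial adjusted p from 0.168 to 0.275, T cell from 0.212 to 0.263 with edgeR). The part of these tissues in the desmosome changes was not tested.

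**Figure D4:**
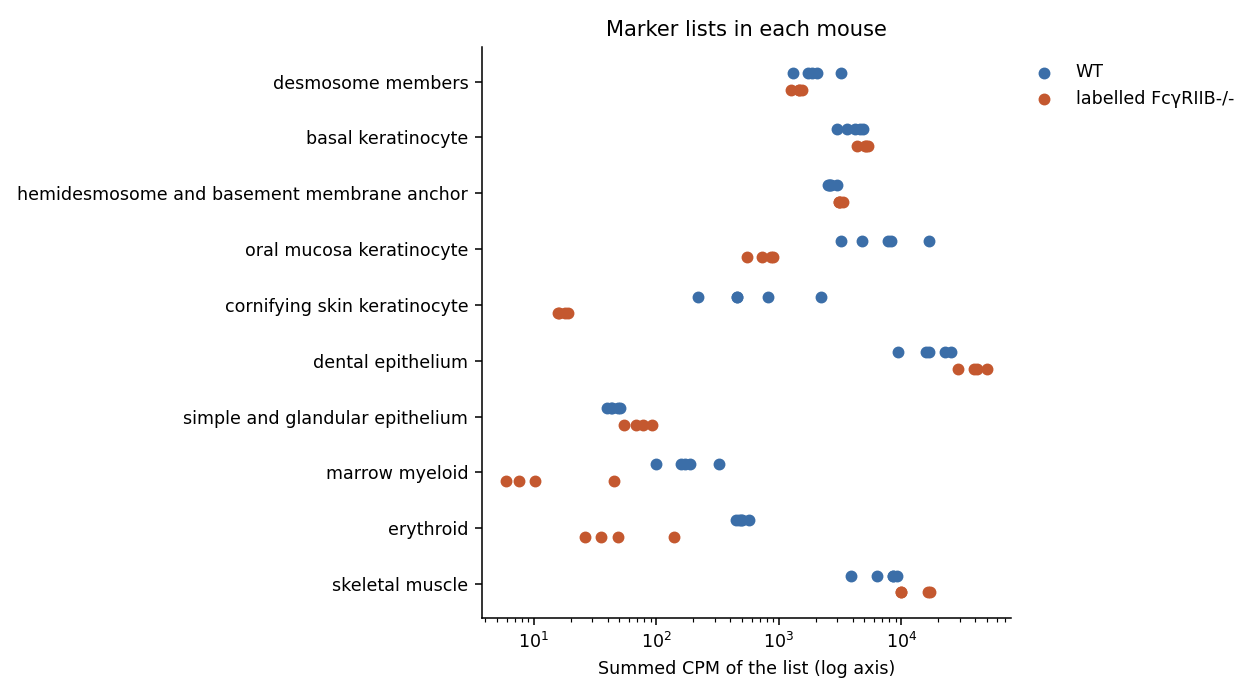
Summed CPM of 10 gene lists on a log axis, 1 point per mouse, for WT (blue) and mice labelled FcγRIIB-/- (orange). The summed desmosome level overlaps between the groups (1310 to 3224 CPM in WT and 1259 to 1556 CPM in the others), whereas the oral mucosa and skin lists are higher in every WT mouse and the dental epithelium list is lower.

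Apart from genotype, the members varied together over the mice. With the group means removed, the level of each member was correlated with the mean of the other members over the 9 mice, and r was between 0.81 and 0.99 for all of them but *Dsg2*, at -0.41. Without WT replicate 5 the values were between 0.58 for *Dsc1* and 0.98 for *Dsc2*, and *Dsg2* had 0.03. WT replicate 2 was the lowest WT mouse in 9 of the 10 members, and replicate 4 was the lowest of the mice labelled *FcγRIIB*-/- in 7. These correlations describe 9 libraries that share their normalization.

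The 6 non-member genes whose pattern over the 9 mice was most like the mean pattern of the members, of 12950 genes ranked, were *Crybg1* (r = 0.990), *Cdk5rap1* (0.986), *Hopx* (0.980), *Trim29* (0.979), *Fabp5* (0.978) and *Aloxe3* (0.977). Between the genotypes they went different ways. *Aloxe3*, a lipoxygenase of the skin barrier, had a log2 fold change of -3.04 (SE 0.35, edgeR adjusted p = 0.000374). *Hopx* and *Fabp5*, a fatty acid binding protein of keratinocytes, had -2.18 and -2.12 and passed. *Cdk5rap1* was higher (0.53, adjusted p = 0.0333), and *Crybg1* (-0.37, adjusted p = 0.118) and *Trim29* (-0.49, adjusted p = 0.0864) did not pass. The likeness was computed from the spread within each genotype and so holds no part of the difference between them. The mean pattern of the members, in SD units around the group mean, was highest in WT replicate 5 (1.59) and lowest in WT replicate 2 (-1.32). The r values of these genes were not computed without WT replicate 5.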

How the data were processed

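The authors trimmed 75-base single-end reads (Trim Galore), aligned these to mm10 (HISAT, version 02.1.0 in the submitters' processing notes), counted genes (featureCounts) and deposited the raw counts. Libraries came from a directional kit. The annotation, the strand setting and the handling of reads with several matches are not given in the sources used here. 1 column of counts that matched no sample was not used.

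From the counts, edgeR 4.0.16 in R 4.3.3 gave the comparison of all 9 mice: filterByExpr at its default minimum count of 10, TMM, the quasi-likelihood test with no covariate and Benjamini-Hochberg adjustment over all tested genes at 0.05. SE is the size of the log2 fold change divided by the root of F. Gene starts and ends are those of RefSeq (GRCm38.p6). Strands, overlapping genes, transcripts and exon lengths (the union of all exons of a gene) are those of GENCODE M21 (GRCm38). Ratios used 0.5 added to each count and a two-sided exact permutation test. Named genes were all members, *Fcgr2b*, the partners in ratios, all of 3 lists (other desmosome genes, basal keratinocyte, junction regulators), the 3 largest passing changes of each further list (average log2 CPM no less than 1) and the 6 genes most alike (no less than 2). *Col17a1*, *Itgb4* and *Cd151* of the hemidesmosome list and *Msx2* were named after their values were seen, and a few genes that the rule covers are not reported here. Members and lists were chosen with earlier results of these data known. Alternatives covered scaling, filters, DESeq2 1.42.0, thresholds, a replicate block, summed copies and leaving out each mouse. The calculation was tested on simulated data. Within a genotype, 0 pairs of libraries had near-identical counts. The labels do not say which mice shared a litter or cage, and p-values measure the spread between these mice. Some genes of the table lacked a symbol (1030) and kept their identifier.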

Additional observations from a re-analysis of the deposited data

Results flagged for a closer look

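In 7 of 42 groups of 4 or 5 mice, 1 mouse lay far from the others for its group's range. For independent, normally distributed values, chance alone does so in about 1 group in 20. These values were CPM without a log, from genes that varied together over the same mice, so the rates cannot be set against each other. WT replicate 5 was the distant mouse for 5 desmosome genes. It had 290.5 CPM of *Dsg1a*, with 68.0 to 121 in the other WT mice, and 55.6 CPM of *Dsg1b*, with 11.6 to 21.1 in the others. For *Dsc1* it had 193 CPM against 19.6 to 41.1, for *Dsp* 1309 CPM against 446 to 688, and for *Cdsn* 200.3 CPM against 19.9 to 38.9. In the same mouse the summed oral mucosa markers (16840 CPM) and skin markers (2196 CPM) were the highest of the 9 mice and the summed dental epithelium markers (9412 CPM) the lowest. All 5 genes passed as lower in the libraries labelled *FcγRIIB*-/- with and without this mouse. For *Fcgr2b*, WT replicate 2 had 38.3 CPM against 17.0 to 23.1 in the other WT mice, and replicate 4 labelled *FcγRIIB*-/- had 32.1 CPM against at most 26.6 in the others of its group.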

How the results depend on the processing

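*Dsc1*, *Dsg1a* and *Dsg1b* passed as lower under each alternative run, with log2 fold changes from -4.01 to -2.69, -2.11 to -1.45 and -2.49 to -1.76. The number of members that passed as lower was 6 with library totals alone and 5 with DESeq2 (*Dsg3* and *Pkp1* added), and lay between 3 and 6 when 1 mouse was left out, with 6 (*Dsg3*, *Pkp1* and *Jup* added) without WT replicate 2. Over all genes, library totals alone gave 1309 higher genes, an adjusted p of 0.01 gave 1763 lower and 869 higher, and a log2 limit of 1 gave 1069 lower and 181 higher. With 1 mouse left out there were between 2521 and 2771 lower and between 1781 and 2292 higher genes. A replicate block gave 2209 lower and 1841 higher genes and 3 lower members, and mice with the same number did not deviate together (correlations from -0.114 to 0.0969), so numbers do not pair them. The ratio of *Dsg3* to *Dsg2* ranged from -0.88 to -0.44 with 1 mouse left out and passed without WT replicate 2 (exact permutation, adjusted p = 0.0327), and that of *Dsc3* to *Dsc2* ranged from -0.22 to 0.0093, above 0 without WT replicate 2. Small changes turned for *Pkp2* (-0.0059 with library totals), *Krt15* (from -0.39 to 0.036, above 0 without WT replicate 4) and *Dsg2* (from -0.053 to 0.18, below 0 without replicate 2 labelled *FcγRIIB*-/-). The causes were not tested. The list counts and the order of levels without WT replicate 5 were chosen after seeing the data. Genes near 1 CPM, such as *Klk5*, rest on few reads.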
